A study of Mus musculus and Sus scrofa with 30 samples.

Results

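The enzymes that break down the branched-chain amino acids leucine, isoleucine and valine were followed through adipogenic induction of mouse and pig cells. The set holds the 10 genes Bcat2, Bckdha, Bckdhb, Dbt, Ivd, Mccc1, Mccc2, Aldh6a1, Pcca and Pccb, each taken as the row carrying that gene symbol. All 10 were found in both tables, among 24843 genes in mouse and 34307 in pig, and all 10 had the mean normalized count of at least 10 needed for testing. In mouse Bcat2 and Bckdha lie on chromosome 7, Bckdhb and Pccb on 9, Dbt and Mccc1 on 3, Ivd on 2, Mccc2 on 13, Aldh6a1 on 12 and Pcca on 14. In pig BCAT2 and BCKDHA lie on chromosome 6, BCKDHB and IVD on 1, DBT on 4, MCCC1 and PCCB on 13, MCCC2 on 16, ALDH6A1 on 7 and PCCA on 11.

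The breakdown of these amino acids starts in mitochondria with a transaminase, Bcat2, that removes the amino group. The branched-chain keto acid dehydrogenase complex then commits the carbon to oxidation: Bckdha and Bckdhb form its E1 decarboxylase, Dbt is its E2 core, and Dld is an E3 subunit that it shares with other dehydrogenases. The leucine branch runs through isovaleryl-CoA dehydrogenase (Ivd) and the biotin-dependent methylcrotonyl-CoA carboxylase (Mccc1 and Mccc2). Aldh6a1 acts in the valine branch, and the biotin-dependent propionyl-CoA carboxylase (Pcca and Pccb) takes up propionyl-CoA from valine and isoleucine. Differentiating fat cells are known to gain this pathway and to use its acetyl-CoA and propionyl-CoA for lipid synthesis.

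The study induced 2 kinds of cell to form fat cells and took bulk RNA on day 5: 3T3-L1, an established mouse embryonic fibroblast line that can become fat cells, and porcine DFAT cells, which derive from fat cells that have lost their lipid. In each system there were 5 groups of 3 libraries, 30 in all: DMSO vehicle, dicoumarol (a vitamin K antagonist), magnolol (a lignan of magnolia bark), both compounds together (the combination), and rosiglitazone, a drug that activates the fat-cell receptor PPARG. Every group, vehicle included, received the induction mix, which for 3T3-L1 held dexamethasone at 75 nM, the phosphodiesterase inhibitor IBMX at 37.5 µM and insulin at 0.75 µg/mL. For DFAT it held biotin, the cofactor of both carboxylases, at 20 µM, together with pantothenate (10 µM), IBMX (12.5 µM) and dexamethasone (0.5 µM). Serum during induction was 10% for 3T3-L1 and 2% for DFAT. The sources used here give neither the compounds' doses nor whether replicates were separate cultures or animals, so p-values measure only the spread between these libraries. Species and medium differ together between the systems and cannot be told apart.

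The values are gene counts that the authors divided by a size factor per library, called normalized counts below. They are not per length, so levels are compared between groups for 1 gene and never between genes. Depth estimated from the spacing of low values was 22.8 to 30.7 M reads per library in 3T3-L1 and 44.8 to 70.5 M in DFAT. Fat-cell markers rose with rosiglitazone in both systems. The summed normalized count of 12 adipocyte markers was 44247 to 62237 over the vehicle libraries of 3T3-L1, 62375 to 96828 with dicoumarol, 89351 to 133415 with magnolol, 115254 to 181590.0 with the combination and 322268 to 567517 with rosiglitazone. In DFAT the same sum was 18501 to 21432, 23468 to 25109.8, 36243 to 44649, 57005 to 64318 and 76486 to 83549 in the same order of groups, with RETN and ADRB3 at 0 in every library. With rosiglitazone Adipoq rose by 5.06 in 3T3-L1 and 7.15 in DFAT on the log2 scale, Plin1 by 4.74 and 5.05, Fabp4 by 5.68 and 3.66, and Pparg by 0.65 and 0.48. Progenitor and fibroblast markers had sums of 237081 to 262258 with vehicle and 138390.0 to 180096 with rosiglitazone over 8 genes in 3T3-L1, and 1582470.0 to 1734590.0 and 1234100.0 to 1372500.0 over 7 genes in DFAT. The DFAT sum was 2219450.0 to 2316660.0 with dicoumarol, 2530460.0 to 2898740.0 with magnolol and 2522120.0 to 2997970.0 with the combination. Single markers did not all follow the sums. Rosiglitazone lowered 7 of 8 tested in 3T3-L1 (19.9% of all genes fell) and 1 of 6 in DFAT (5.02%) at the threshold (limma, adjusted p under 0.05). In DFAT the combination raised 3 of the 6 and lowered 1 (4.06% of all genes fell). The part of cell composition in the results below was not tested, and in bulk RNA fewer cells of a type and less RNA per cell cannot be told apart.

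To show the sequence before the start of 4 of the genes, windows of 250 bases upstream of the annotated start were taken from RefSeq (GRCm38.p6) for mouse, where 9 of the 10 genes matched and gave 13 windows. Bckdhb (chromosome 9, plus strand, chr9:83924887-83925136) and Bckdha (chromosome 7, minus strand, chr7:25658762-25659011) are shown as the E1 pair that changed by different amounts. Ivd (chromosome 2, plus strand, chr2:118861744-118861993) and Aldh6a1 (chromosome 12, minus strand, chr12:84451025-84451274) are shown as enzymes of a leucine and a valine step. Each is written 5′ to 3′ on the gene's strand, and capitals mark CCAAT boxes (CCAAT, or ATTGG on the other strand) and nuclear receptor half-sites (AGGTCA, or TGACCT on the other strand).
Bckdhb: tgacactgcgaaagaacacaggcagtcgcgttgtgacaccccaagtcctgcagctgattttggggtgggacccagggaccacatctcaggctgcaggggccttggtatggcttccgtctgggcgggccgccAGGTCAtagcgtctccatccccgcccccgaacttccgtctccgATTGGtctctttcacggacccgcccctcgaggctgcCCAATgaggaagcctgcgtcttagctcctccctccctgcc
Bckdha: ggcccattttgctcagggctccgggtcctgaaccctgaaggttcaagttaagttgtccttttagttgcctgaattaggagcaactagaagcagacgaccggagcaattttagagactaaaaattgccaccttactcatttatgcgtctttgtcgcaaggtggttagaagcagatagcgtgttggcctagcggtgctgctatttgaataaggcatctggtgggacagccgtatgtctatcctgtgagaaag
Ivd: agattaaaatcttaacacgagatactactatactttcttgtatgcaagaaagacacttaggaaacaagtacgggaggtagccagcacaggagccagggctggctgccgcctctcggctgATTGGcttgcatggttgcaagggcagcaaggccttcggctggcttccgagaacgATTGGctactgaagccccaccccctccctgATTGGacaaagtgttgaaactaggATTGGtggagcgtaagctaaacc
Aldh6a1: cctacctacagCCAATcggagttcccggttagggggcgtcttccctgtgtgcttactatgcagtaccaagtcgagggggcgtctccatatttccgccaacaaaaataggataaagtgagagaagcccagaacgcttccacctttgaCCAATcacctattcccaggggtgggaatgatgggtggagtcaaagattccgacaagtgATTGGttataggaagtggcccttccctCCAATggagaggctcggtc
The Ivd and Aldh6a1 windows each held 4 CCAAT boxes, the Bckdhb window held 2 and 1 half-site, and the Bckdha window held none of these letters. Other annotated starts differ: a second Aldh6a1 window held 1 CCAAT box and 1 half-site, a second Bckdhb window held none, and neither did the 2 windows of Bcat2, the gene with the largest change. A CCAAT box stood in 8 of the 13 windows, while 33.8% of 32851 promoter windows of this length held one. The half-site stood in 3 of the 13 windows and in 14.0% of all windows. The full PPAR element (DR1), the half-site repeated after 1 base and searched on both strands, stood in none of the 13 and in 0.0335% of all windows. Other motifs were searched in the same way. The ERR element (0.387% of all windows), NRF1 element (0.782%), ETS core (6.91%) and C/EBP palindrome (0.164%) stood in none of the 13. The E-box (CACGTG) stood in 1 of the 13 and in 6.02% of all windows. A match is a description of the letters and not of binding.

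In 3T3-L1 cells rosiglitazone raised 9 of the 10 genes, the exception being Pcca. All genes tested served as the background: 15723 genes, of which 20.3% rose with rosiglitazone (limma on log2(normalized count + 1), adjusted p under 0.05 over all genes tested). The median log2 fold change of the 10 genes was 0.73, while that of all genes tested was -0.00148. Each of the 9 kept its call when any 1 of the 6 libraries was left out. For 9 of the 10 all 3 rosiglitazone libraries lay above all 3 vehicle libraries, against 23.5% of all genes.

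**Figure D1:**
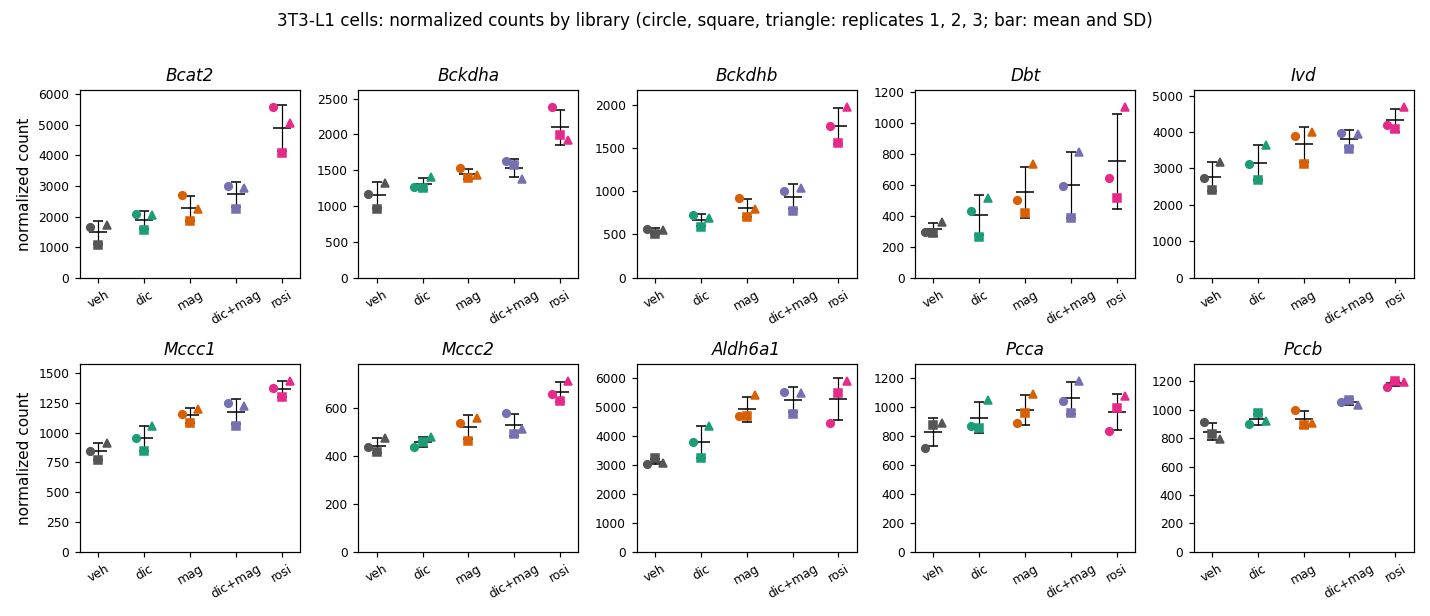
Normalized counts of the 10 genes in 3T3-L1 cells on the y axis (linear, from 0) by group on the x axis (vehicle, dicoumarol, magnolol, dicoumarol with magnolol, rosiglitazone). Points are single libraries with 1 symbol per replicate number and bars are the mean and SD of 3; Bcat2 and Bckdhb stand highest over vehicle with rosiglitazone, while Pcca libraries overlap.

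Bcat2, which opens the pathway, had the largest change of the 10 with rosiglitazone. Its normalized counts were 1664, 1054 and 1724 with vehicle, 2082, 1558 and 2060.4 with dicoumarol, 2694, 1866 and 2244 with magnolol, 3003, 2257 and 2937 with the combination and 5571, 4089 and 5052 with rosiglitazone. Every rosiglitazone library exceeded every library of the other 4 groups, and dicoumarol overlapped vehicle. The change with rosiglitazone was 3.36-fold (limma, log2 fold change 1.75, SE 0.19, adjusted p = 4.76e-06), and with the combination 1.87-fold (log2 fold change 0.91, SE 0.19, adjusted p = 0.0106). Without combination replicate 1 the latter did not pass (limma, adjusted p = 0.0733).

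The E1 beta subunit Bckdhb moved almost as far as Bcat2. It had 568, 501 and 552 normalized counts with vehicle, 721, 585 and 693 with dicoumarol, 916, 707 and 798 with magnolol, 1003, 770.1 and 1041 with the combination and 1749.8, 1555 and 1968 with rosiglitazone. Each of the 4 treated groups lay above all vehicle libraries. It rose with magnolol (limma, log2 fold change 0.57, SE 0.13, adjusted p = 0.0481), with the combination (log2 fold change 0.78, SE 0.13, adjusted p = 0.00255) and with rosiglitazone (log2 fold change 1.70, SE 0.13, adjusted p = 3.1e-07). Its E1 partner Bckdha had 1169.5, 958 and 1327 with vehicle, 1271, 1254 and 1411 with dicoumarol, 1526, 1389.7 and 1437 with magnolol, 1635, 1577 and 1384 with the combination and 2377, 1997 and 1929 with rosiglitazone. The Bckdha rise with rosiglitazone was 1.83-fold (limma, log2 fold change 0.87, SE 0.12, adjusted p = 2.92e-05) against 3.24-fold for Bckdhb.

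The E1 transcripts were also compared as a ratio. The log2 ratio of Bckdhb to Bckdha in 3T3-L1, read only as a change between groups because it is not per length, was -1.04, -0.94 and -1.26 with vehicle and -0.44, -0.36 and 0.03 with rosiglitazone. The groups did not overlap, and the means differed by 0.82 (exact permutation test, p = 0.1, the smallest that 3 against 3 allows). This test and those below took libraries as unpaired, although replicate numbers pair them in 3T3-L1. No paired or blocked test of a ratio was run. In DFAT the ratio was -1.72, -1.77 and -1.27 with vehicle and lower, -2.06, -1.91 and -2.08, with rosiglitazone, a difference of -0.43 (exact permutation test, p = 0.1). With magnolol it was -2.08, -1.90 and -2.00 in DFAT, also below every vehicle library, and -0.74, -0.98 and -0.85 in 3T3-L1, where it overlapped vehicle. The same ratio of Mccc1 to Mccc2, the alpha and beta chains of 1 carboxylase, differed from vehicle with rosiglitazone by 0.11 in 3T3-L1 and 0.21 in DFAT. These smaller differences did not overlap vehicle either (exact permutation test, p = 0.1 in each system). In 3T3-L1 the Mccc1 to Mccc2 ratio differed by 0.21 with magnolol and 0.22 with the combination. In DFAT it differed by -0.17 with the combination. None of these overlapped vehicle (exact permutation test, p = 0.1 each). It overlapped vehicle with magnolol in DFAT (-0.07) and with dicoumarol in both systems. With rosiglitazone the ratio of Pcca to Pccb differed by -0.27 in 3T3-L1 and -0.09 in DFAT, with overlapping libraries in both systems. That of Dbt to Bckdha also overlapped vehicle with rosiglitazone in both systems (0.32 and 0.06). It lay above vehicle with magnolol in 3T3-L1 (0.44, exact permutation test, p = 0.1), by a narrow margin. With the combination Bckdhb to Bckdha overlapped vehicle in both systems (0.36 and -0.23). No p-value of a ratio was adjusted for the number of tests.

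**Figure D2:**
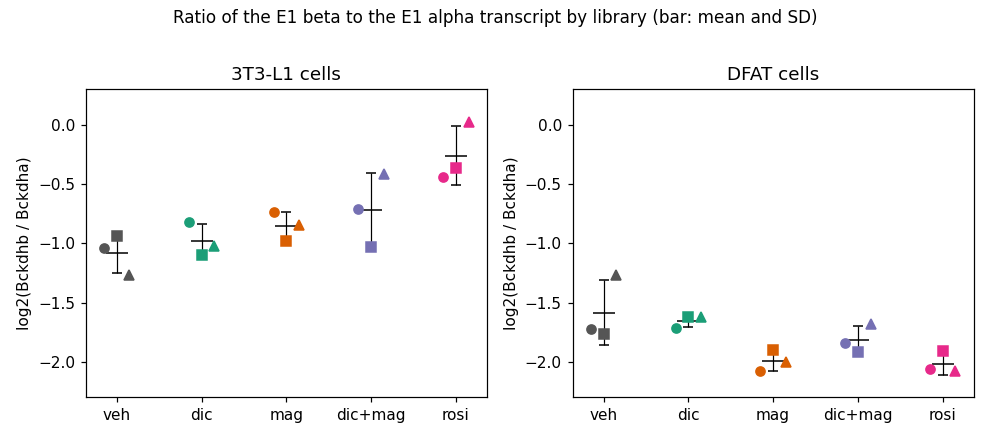
Log2 ratio of the normalized counts of Bckdhb to Bckdha on the y axis, by group on the x axis, in 3T3-L1 (left) and DFAT (right). Points are libraries and bars the mean and SD of 3; with rosiglitazone the ratio lies above vehicle in 3T3-L1 and below it in DFAT.

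Dbt, the E2 core, rose with rosiglitazone but varied most between replicates. Its normalized counts were 292, 286 and 359 with vehicle, 432, 263 and 513 with dicoumarol, 501, 416 and 734 with magnolol, 594, 382 and 807 with the combination and 639.5, 512 and 1098 with rosiglitazone. Replicate 3 was the highest in all 5 groups and replicate 2 the lowest, so that the coefficient of variation reached 41.1%. The rise with rosiglitazone was 2.28-fold (limma, log2 fold change 1.19, SE 0.31, adjusted p = 0.0061). With magnolol and the combination the libraries lay above vehicle without passing the test (limma, log2 fold change 0.78, SE 0.31, adjusted p = 0.368 and log2 fold change 0.87, SE 0.31, adjusted p = 0.133). Replicate numbers pair the 3T3-L1 libraries, and with the number as a block both differences passed (limma, adjusted p = 0.00203 and 0.000332).

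The enzymes of the leucine branch rose by less. Ivd had 2749, 2396 and 3184 normalized counts with vehicle, 3124, 2687 and 3649.9 with dicoumarol, 3881, 3111 and 3986 with magnolol, 3964, 3539 and 3957 with the combination and 4202, 4080.1 and 4675 with rosiglitazone. The combination and rosiglitazone libraries stood above vehicle, and both changes passed (limma, log2 fold change 0.47, SE 0.13, adjusted p = 0.0442; log2 fold change 0.64, SE 0.13, adjusted p = 0.000874). Mccc1, the biotin-carrying chain of its carboxylase, had 844, 769 and 912 with vehicle, 954, 847 and 1054 with dicoumarol, 1158, 1076 and 1196 with magnolol, 1244, 1054 and 1223 with the combination and 1370.2, 1299 and 1429 with rosiglitazone. It rose with magnolol (limma, log2 fold change 0.44, SE 0.10, adjusted p = 0.0424), the combination (log2 fold change 0.48, SE 0.10, adjusted p = 0.0108) and rosiglitazone (log2 fold change 0.70, SE 0.10, adjusted p = 6.13e-05). Its partner Mccc2 had 434, 413 and 474 with vehicle, 435, 456 and 478 with dicoumarol, 534, 461 and 558 with magnolol, 577, 489 and 511 with the combination and 655, 629 and 709 with rosiglitazone. Of these only the rosiglitazone difference passed (limma, log2 fold change 0.59, SE 0.10, adjusted p = 0.000308), and the combination gave adjusted p = 0.201.

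Aldh6a1, the methylmalonate-semialdehyde dehydrogenase of the valine branch, had close means with the combination (5254 ± 429, SD, n = 3) and rosiglitazone (5284 ± 743). Its normalized counts were 3040.1, 3233 and 3086 with vehicle, 3779.9, 3259 and 4342 with dicoumarol, 4682, 4687 and 5431 with magnolol, 5512, 4759 and 5491 with the combination and 4456, 5501 and 5894 with rosiglitazone. Each treated group lay above the vehicle libraries. It rose with magnolol (limma, log2 fold change 0.66, SE 0.12, adjusted p = 0.0122), the combination (log2 fold change 0.75, SE 0.12, adjusted p = 0.00159) and rosiglitazone (log2 fold change 0.75, SE 0.12, adjusted p = 0.000125). Rosiglitazone minus combination was 0.00 with a 95% interval of -0.25 to 0.25, which does not show that the levels are alike.

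The propionyl-CoA carboxylase chains had the smallest log2 fold changes of the 10 with rosiglitazone. Pccb, the beta chain, had 911, 830.2 and 796 normalized counts with vehicle, 902, 976 and 922 with dicoumarol, 1000.0, 890.2 and 904 with magnolol, 1056, 1072 and 1033 with the combination and 1163, 1199 and 1194 with rosiglitazone. Its replicates were tight, and it rose with the combination (limma, log2 fold change 0.32, SE 0.08, adjusted p = 0.0304) and rosiglitazone (log2 fold change 0.49, SE 0.08, adjusted p = 0.000193). Pcca, the biotin-carrying alpha chain, had 717, 878 and 893 with vehicle and 834, 991 and 1079.7 with rosiglitazone, which overlap. Its highest group was the combination, with 1046, 959 and 1178. Neither difference passed (limma, log2 fold change 0.22, SE 0.13, adjusted p = 0.18 with rosiglitazone and log2 fold change 0.36, SE 0.13, adjusted p = 0.132 with the combination), and both passed with the replicate block (adjusted p = 0.0328 and 0.00723).

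The combination raised 7 of the 10 genes in 3T3-L1, Bcat2, Bckdha, Bckdhb, Ivd, Mccc1, Aldh6a1 and Pccb, where 3.86% of all genes rose. For all 10 the 3 combination libraries exceeded the 3 vehicle libraries, against 11.5% of all genes. Magnolol alone raised 3, Aldh6a1, Mccc1 and Bckdhb, where 1.07% of all genes rose, and for 6 of the 10 its libraries all exceeded vehicle (8.52% of all genes). With the replicate block magnolol raised 6 of the 10 (3.52% of all genes), adding Bcat2, Dbt and Ivd (limma, adjusted p = 0.000122, 0.00203 and 0.00277). Several of these calls were lost when 1 library was left out of the fit without the block. The Mccc1 rise with magnolol was lost when any 1 of the 6 libraries was left out (limma, adjusted p 0.0585 to 0.213). The Bckdhb rise passed only without magnolol replicate 2 (0.0476, and 0.098 to 0.275 otherwise), and the Aldh6a1 rise failed without vehicle replicate 3 (0.0523), magnolol replicate 1 (0.0599) or magnolol replicate 3 (0.0807). With the combination, Bckdha passed only without vehicle replicate 3 (0.0216, and 0.0508 to 0.214 otherwise), Ivd only without vehicle replicate 3 (0.0294, and 0.055 to 0.183 otherwise) and Pccb only without vehicle replicate 1 (0.0289, and 0.07 to 0.121 otherwise). Mccc1 failed without combination replicate 1 (0.0769) or 3 (0.0501). With the block and all libraries kept, the magnolol calls had adjusted p of 0.000655 for Mccc1, 0.00038 for Bckdhb and 0.000533 for Aldh6a1 (limma). Those with the combination had 0.0111 for Bckdha, 0.000307 for Ivd, 0.00727 for Pccb and 0.000131 for Mccc1. No library was left out of the blocked fit.

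Dicoumarol alone raised none of the 10 genes at the threshold in 3T3-L1, where 0% of all genes tested passed in either direction (limma). Bckdhb and Aldh6a1 had unadjusted p of 0.0401 and 0.0342 (limma), and for these 2 all dicoumarol libraries exceeded vehicle (3.15% of all genes). All 10 log2 fold changes were above 0, from 0.05 for Mccc2 to 0.38 for Bcat2, with a median of 0.19. With the replicate block Bcat2 alone passed (limma, adjusted p = 0.044), where 0.458% of all genes rose.

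**Figure D3:**
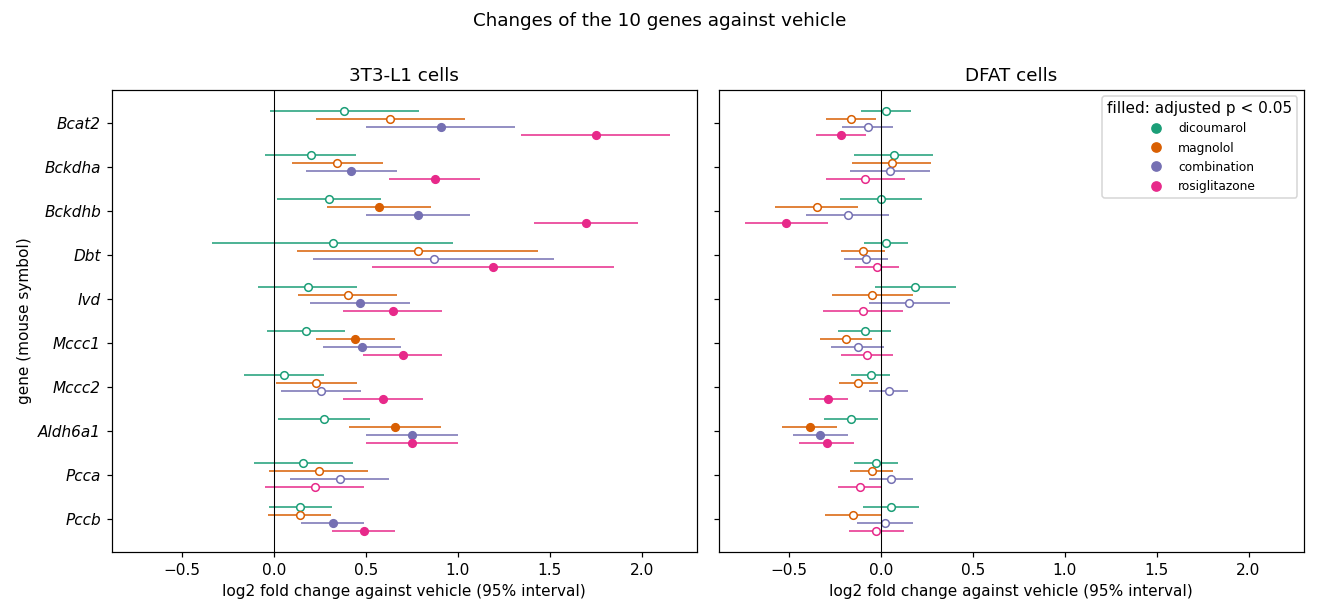
Log2 fold changes against vehicle on the x axis for the 10 genes on the y axis, in 3T3-L1 (left) and DFAT (right); colours are the 4 treatments, lines are 95% intervals from limma and filled points passed the adjusted threshold. Points lie to the right of 0 in 3T3-L1, farthest for Bcat2 and Bckdhb with rosiglitazone, and the DFAT points that passed lie to the left.

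Group means of 8 of the 10 genes followed 1 order in 3T3-L1: vehicle, dicoumarol, magnolol, combination, rosiglitazone from low to high. Neighbours in that order were often not separated. Dicoumarol against vehicle passed for none of the 10 without the replicate block and for Bcat2 alone with it, as above. Dicoumarol and magnolol were not compared. The combination and magnolol differed for none (limma, 0% of all genes passed; 1 of the 10, Pccb, had an unadjusted p of 0.0409). The combination against dicoumarol gave none at the threshold (0.0254% of all genes rose; 6 of the 10 at an unadjusted p under 0.05), and 6 with the replicate block, Bcat2, Bckdhb, Dbt, Ivd, Mccc1 and Aldh6a1 (2.49% of all genes). No interaction of dicoumarol and magnolol passed for any of the 10 (limma; 0% of all genes; 0 of the 10 had an unadjusted p under 0.05), with log2 values from -0.23 to 0.04.

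Rosiglitazone exceeded the combination for 4 of the 10 genes, against 9.53% of all genes. These were Bckdhb (limma, log2 fold change 0.91, SE 0.13, adjusted p = 0.000877), Bcat2 (log2 fold change 0.84, SE 0.19, adjusted p = 0.00834), Bckdha (log2 fold change 0.45, SE 0.12, adjusted p = 0.0152) and Mccc2 (log2 fold change 0.34, SE 0.10, adjusted p = 0.0335), so that the transaminase and both E1 chains separated the drug from the compound pair. Bckdha lost the call without combination replicate 3 (adjusted p = 0.0687) or rosiglitazone replicate 1 (0.0854), and Mccc2 without combination replicate 2 (0.112) or 3 (0.0967) or rosiglitazone replicate 1 (0.0869) or 3 (0.105). The replicate block added Mccc1 (limma, adjusted p = 0.0172). Against magnolol alone rosiglitazone was higher for 5 of the 10, the same 4 and Pccb (log2 fold change 0.35, SE 0.08, adjusted p = 0.00402), where 17.8% of all genes rose. Mccc2 lost that call without magnolol replicate 2 (0.0773) or rosiglitazone replicate 3 (0.0536). With the block there were 8 of the 10, the additions being Dbt, Ivd and Mccc1 (limma, adjusted p = 0.0195, 0.0104 and 0.00477), where 23.2% of all genes rose.

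In DFAT cells none of the 10 genes rose under any treatment at the threshold, and none had a higher level with an unadjusted p under 0.05 (limma). Rosiglitazone lowered 4, BCKDHB, MCCC2, ALDH6A1 and BCAT2, where 5.02% of 14819 genes fell (limma, adjusted p under 0.05). The median log2 fold change of the 10 was -0.10, and that of all genes tested was -0.01. For 5 of the 10 all rosiglitazone libraries lay below vehicle (10.9% of all genes).

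BCKDHB fell most. Its normalized counts were 600.3, 567 and 672 with vehicle, 607, 609.8 and 617 with dicoumarol, 476, 550.2 and 422 with magnolol, 569, 543 and 507 with the combination and 449.8, 469.9 and 371 with rosiglitazone. The magnolol and rosiglitazone libraries lay below vehicle, and the rosiglitazone difference passed (limma, log2 fold change -0.51, SE 0.11, adjusted p = 0.0034) while that with magnolol did not (log2 fold change -0.35, SE 0.11, adjusted p = 0.0794). MCCC2 was very even between replicates, at 4320.4, 4425 and 4360.4 with vehicle, 4252, 4207 and 4162 with dicoumarol, 3997, 4159 and 3874 with magnolol, 4350.1, 4464 and 4678 with the combination and 3628, 3646 and 3474 with rosiglitazone. Rosiglitazone stood below all other libraries (limma against vehicle, log2 fold change -0.29, SE 0.05, adjusted p = 0.000823).

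ALDH6A1 was the gene of the 10 that fell with 3 of the treatments in DFAT. It had 1944, 2008 and 2086 normalized counts with vehicle, 1724, 1823 and 1847 with dicoumarol, 1493, 1627 and 1501 with magnolol, 1555, 1692 and 1555 with the combination and 1612, 1817 and 1509 with rosiglitazone. No treated library reached the lowest vehicle library. The fall passed with magnolol (limma, log2 fold change -0.39, SE 0.07, adjusted p = 0.00294), the combination (log2 fold change -0.33, SE 0.07, adjusted p = 0.00518) and rosiglitazone (log2 fold change -0.29, SE 0.07, adjusted p = 0.0106), and not with dicoumarol (log2 fold change -0.16, SE 0.07, adjusted p = 0.418). Without rosiglitazone replicate 3 the rosiglitazone call was lost (adjusted p = 0.0693). BCAT2 had 3858, 3665 and 3459 with vehicle, 3847, 3692 and 3657 with dicoumarol, 3387, 3379 and 3044 with magnolol, 3612, 3625 and 3213 with the combination and 3137, 3272 and 3040.0 with rosiglitazone. Its fall with rosiglitazone was small (limma, log2 fold change -0.22, SE 0.06, adjusted p = 0.0394) and was lost without vehicle replicate 1 (adjusted p = 0.175) or 2 (0.102) or rosiglitazone replicate 1 (0.084) or 3 (0.143).

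**Figure D4:**
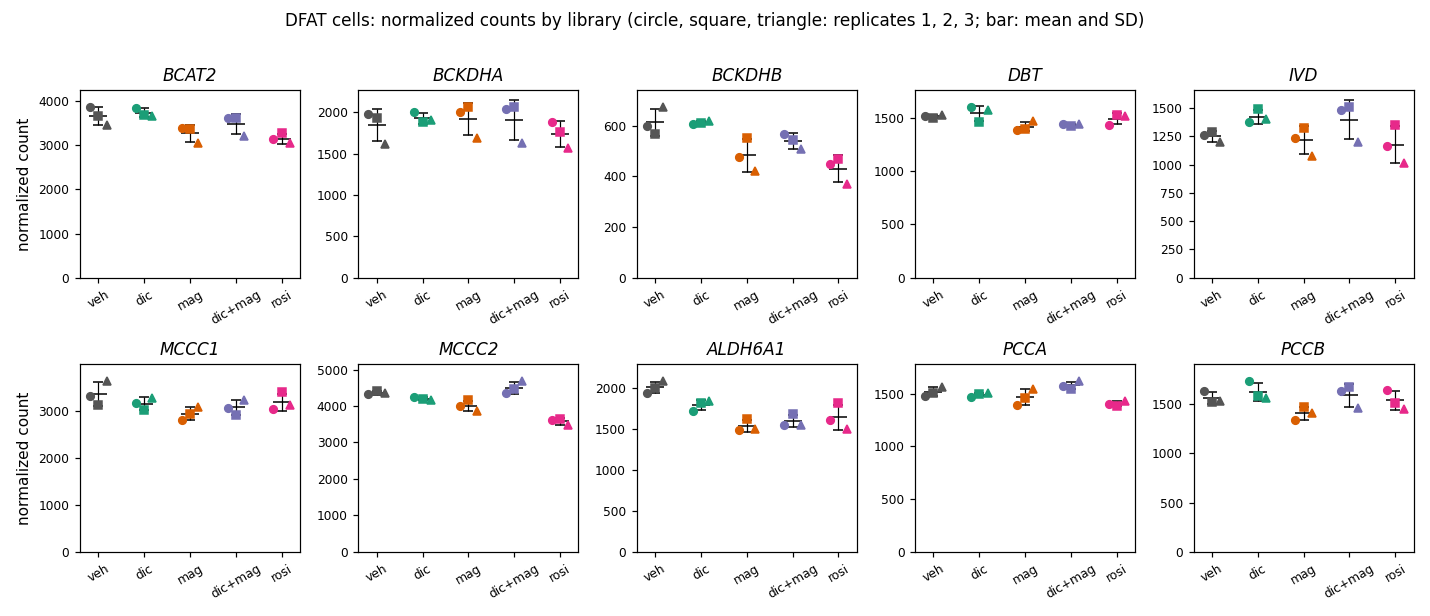
Normalized counts of the 10 genes in DFAT cells on the y axis (linear, from 0) by group on the x axis (vehicle, dicoumarol, magnolol, dicoumarol with magnolol, rosiglitazone). Points are single libraries with 1 symbol per replicate number and bars are the mean and SD of 3; ALDH6A1 lies below vehicle in all treated groups, and BCKDHB and MCCC2 are lowest with rosiglitazone.

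ALDH6A1 was the only one of the 10 to pass with magnolol, where 1.27% of all genes fell, and with the combination, where 4.06% fell. For 7 of the 10 all magnolol libraries lay below vehicle (11% of all genes), and for 2 with the combination (14.7%). With dicoumarol none of the 10 passed (limma, 1.94% of all genes passed), and ALDH6A1 alone had an unadjusted p under 0.05. Of the 10, 2 lay wholly below vehicle (9.47%) while IVD lay wholly above it (9.8%). The other 6 genes passed against vehicle under no treatment in DFAT. Their log2 fold changes with rosiglitazone were -0.08 for BCKDHA, -0.02 for DBT, -0.10 for IVD, -0.07 for MCCC1, -0.11 for PCCA and -0.02 for PCCB.

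Rosiglitazone was below the combination for 3 of the 10 genes in DFAT, where 8.79% of all genes were lower: MCCC2 (limma, log2 fold change -0.33, SE 0.05, adjusted p = 0.000189), BCKDHB (log2 fold change -0.33, SE 0.11, adjusted p = 0.0401) and PCCA (log2 fold change -0.17, SE 0.06, adjusted p = 0.049). PCCA had 1571, 1547 and 1615 with the combination and 1405, 1381 and 1425 with rosiglitazone, and its call was lost when any 1 of the 6 libraries was left out (adjusted p 0.0768 to 0.138). BCKDHB lost its call without combination replicate 1 (0.131) or 2 (0.0912) or rosiglitazone replicate 3 (0.174). The replicate block gave 5, adding BCAT2 and IVD (limma, adjusted p = 0.0301 and 0.0114), where 12.6% of all genes were lower. Same-numbered libraries of these 2 groups had correlations of 0.105 or more. The block was fitted over all 5 groups, however, where only 16 of 30 such correlations exceeded 0.1. The 2 added calls are therefore not relied on. Against magnolol, MCCC2 alone was lower with rosiglitazone (limma, log2 fold change -0.16, SE 0.05, adjusted p = 0.0409; 6.91% of all genes), and it lost the call without magnolol replicate 1 (0.102) or 2 (0.159) or rosiglitazone replicate 1 (0.0539) or 3 (0.139). The combination against dicoumarol and against magnolol gave none of the 10 at the threshold (limma, 2.35% and 0.621% of all genes passed). At an unadjusted p under 0.05 there were 1 and 2 of the 10 (limma). The interaction of dicoumarol and magnolol passed for none (0.081% of all genes; 2 at an unadjusted p under 0.05, MCCC2 and ALDH6A1).

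The responses of the 2 systems were compared as the difference of the log2 fold changes, 3T3-L1 minus DFAT, over 9371 genes with 1 symbol in both tables. With rosiglitazone the response was higher in 3T3-L1 for 9 of the 10 genes, all but Pcca, where 19.2% of all genes were. The difference was 2.21 (SE 0.17, adjusted p = 6.25e-11) for Bckdhb and 1.97 (SE 0.20, adjusted p = 3.58e-07) for Bcat2, from limma fits of each system. With magnolol it passed for 4, Bcat2, Bckdhb, Mccc1 and Aldh6a1 (1.79% of all genes), and with the combination for the same 4 genes (6.47%). With the replicate block in 3T3-L1 only, where the numbers pair the libraries, it passed for 7 with magnolol, adding Dbt, Ivd and Mccc2 (4.59% of all genes), for 7 with the combination, adding Dbt, Pcca and Pccb (10.9%), and for all 10 with rosiglitazone (23%). Aldh6a1 rose in one system and fell in the other under 3 treatments, and its difference was 1.04 (SE 0.14, adjusted p = 6.43e-05) with magnolol and 1.08 (SE 0.14, adjusted p = 1.1e-05) with the combination. With dicoumarol none passed (0.149% of all genes in either direction; 2 of the 10 had an unadjusted p under 0.05), nor with that block (0.662% of all genes higher in 3T3-L1).

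Among 18 other enzymes of the pathway, 15 rose and 1 fell with rosiglitazone in 3T3-L1, where 20.3% of all genes rose and 19.9% fell, with a median log2 fold change of 0.63. Dld, the shared E3 subunit, rose (limma, log2 fold change 1.12, SE 0.10, adjusted p = 9.7e-07), as did Hibch and Hibadh of the valine branch (1.11 and 1.36) and Hadhb, a chain of the mitochondrial trifunctional protein of fatty acid oxidation (1.46). Bcat1, the cytosolic transaminase, fell (log2 fold change -0.86, SE 0.22, adjusted p = 0.00606), opposite to Bcat2, with overlapping libraries of 1016, 1187 and 623 for vehicle and 440.3, 682 and 417 for rosiglitazone. The combination raised 9 of the 18 (3.86% of all genes) and magnolol 3 (1.07%), among them Hibch (0.68 and 0.56), and dicoumarol 0 (limma, 0% of all genes; 2 of the 18 had an unadjusted p under 0.05). With the replicate block the combination raised 12 (8.03% of all genes), with Mmut and Oxct1 among those added, and magnolol 7 (3.52%), adding Echs1, Hibadh, Hadha and Hadhb. In DFAT rosiglitazone lowered 3 (5.02% of all genes): OXCT1, the ketone-body transferase (-0.29), ACAA2, a thiolase (-0.23), and ACADSB, the short branched-chain dehydrogenase of the isoleucine branch (-0.22). ACAA2 and ACADSB also fell with magnolol (-0.28 and -0.25), and OXCT1 rose with dicoumarol (0.27) and the combination (0.39).

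The kinase and phosphatase that switch the dehydrogenase complex off and on changed little in 3T3-L1, with log2 fold changes of 0.15 for Bckdk and 0.19 for Ppm1k with rosiglitazone, neither of which passed (limma, adjusted p = 0.217 and 0.372). In DFAT the phosphatase PPM1K rose with the combination (0.32) and rosiglitazone (0.54). Klf15, a transcription factor known to drive amino acid catabolism, rose with rosiglitazone in 3T3-L1 from 11.6, 1.71 and 8.14 normalized counts to 61.9, 28.3 and 50.6 (limma, log2 fold change 2.75, SE 0.59, adjusted p = 0.00163), all low counts. KLF15 fell with the combination in DFAT from 2552, 2669 and 1997 to 1752, 1859 and 1302 (limma, log2 fold change -0.56, SE 0.17, adjusted p = 0.0384). Of the 3 genes, 1 rose with rosiglitazone in 3T3-L1 (20.3% of all genes) and 1 in DFAT (5.8%). In 3T3-L1 none passed with magnolol or the combination (1 of 3 had an unadjusted p under 0.05 in each), while with the replicate block Klf15 passed with both (limma, adjusted p = 0.00215 and 0.000308).

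Biotin and cobalamin are cofactors of the carboxylases and of the methylmalonyl-CoA step. Of 8 genes that handle them, 6 rose with rosiglitazone in 3T3-L1, 3 with the combination and 2 with magnolol. The shares of all genes that rose were 20.3%, 3.86% and 1.07%. The replicate block added Mmab with the combination and Acaca with magnolol (limma, adjusted p = 0.0152 and 0.0319), where 8.03% and 3.52% of all genes rose. Slc5a6, which carries biotin and pantothenate into cells, had 397, 293 and 331 normalized counts with vehicle and 1556, 1385 and 1823 with rosiglitazone (limma, log2 fold change 2.22, SE 0.22, adjusted p = 1.69e-06). It also rose with the combination (1.58) and magnolol (1.27). None of the 8 passed with dicoumarol (limma, 0% of all genes; 2 had an unadjusted p under 0.05). With the replicate block 2, Slc5a6 and Pcx, passed (limma, adjusted p = 0.00422 and 0.0167), where 0.458% of all genes rose. Pcx, the biotin-dependent pyruvate carboxylase, rose by 1.84 with rosiglitazone, 1.34 with the combination and 1.11 with magnolol. In DFAT rosiglitazone raised 3 of the 8 and lowered 2, where 5.8% of all genes rose and 5.02% fell. SLC5A6 rose (0.59) and PC, the pig Pcx, fell (-0.55). BTD, which recycles biotin, rose with magnolol (0.35) and the combination (0.45).

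Of 5 transport genes, 4 were tested in each system. In 3T3-L1 2 rose with rosiglitazone, where 20.3% of all genes rose, and none passed with the other treatments (limma; 0 at an unadjusted p under 0.05). In DFAT SLC7A8, an exchanger of large neutral amino acids, was 1502, 1478 and 1251 with vehicle and 628, 686 and 628 with rosiglitazone (limma, log2 fold change -1.12, SE 0.08, adjusted p = 2.8e-08), and it also fell with magnolol (-0.32) and the combination (-0.43). SLC7A5, another carrier of these amino acids, rose with magnolol (0.37) and rosiglitazone (0.54).

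Among the genes whose 8 log2 fold changes (4 treatments in 2 systems) lay nearest to the median of the 10 enzymes, out of 8125 genes with a mean of at least 100, were Idh3b, Echs1, Mmachc and Mrpl37, at root mean square distances of 0.051 to 0.061. Idh3b is a subunit of an enzyme of the citric acid cycle, Echs1 is a hydratase of the pathway itself, Mmachc processes cobalamin and Mrpl37 is a mitochondrial ribosomal protein. The comparisons share the vehicle libraries of each system. The 10 genes themselves define the median used, so their own ranks cannot be set against those of other genes. Mccc1 ranked 3 by the same measure, with Ivd at 81 and Bckdha at 83, while Bckdhb and Bcat2 ranked 4785 and 4870. Both had larger differences with rosiglitazone in 3T3-L1 than the median of the set.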

How the data were processed

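The authors deposited 1 table per system of gene counts divided by DESeq2 size factors (signal values, per the labels), for 15 libraries of 3T3-L1 and 15 of DFAT cells. Libraries were poly(A)-selected and kept strand, per the labels' protocols. The submitters' processing notes name bcl2fastq 2.19.1.403, STAR, DESeq2 and GRCm38 without roles. The sources used here do not give the counter, annotation or pig build, and the deposited start equals the GRCm38.p6 start for 0 of the 10 mouse genes, so deposited coordinates are not printed. Depth was estimated from the spacing of low values, where 81.7% to 90.9% of values up to 20 reads came out whole (tolerance 0.02), so no count test was run.

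Each table was fitted with limma 3.58.1 (R 4.3.3) on log2(value + 1), with 5 groups in 1 model, a variance trend and a mean of at least 10, which left 15723 genes in 3T3-L1 and 14819 in DFAT. Tests are two-sided, p-values were adjusted by Benjamini-Hochberg over all genes tested, and the threshold was 0.05. Fold changes on this scale understate changes of low genes. The difference between systems was divided by its standard error, combined from both fits, with Welch-Satterthwaite degrees of freedom, over genes with 1 symbol in both tables. Ratios were tested by exact permutation without pairing. The fit was tested on simulated data.

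Replicate numbers were checked by the correlation of deviations from group means. In 3T3-L1 same-numbered libraries deviated together: each of 30 correlations exceeded 0.1 (0.106 or more, median 0.30). The 60 between unlike numbers had a median of -0.14. Centring on group means pulls these below 0 when same-numbered ones are positive, so they add no separate evidence. The numbers therefore pair these libraries, and blocked values are given where they change a call. In DFAT 16 of 30 exceeded it.

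Alternatives were other pseudocounts, filters, trend, groups fitted, quantile normalization, the block and leaving out each library. The 10 genes and the lists were chosen with earlier results of these data known. All 10 were named; of the 4 pathway lists the 3 largest rises and falls among genes that passed in each comparison were named, with Pparg, Adipoq, Plin1 and Fabp4 as a label check and the 5 genes nearest to the median of the 10, of which 1 is not reported here. Dld, Hibadh, Hadhb, Bckdk and Ppm1k in 3T3-L1, and list genes that the block added, were named after their values were seen. Promoter windows came from RefSeq.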

Additional observations from a re-analysis of the deposited data

Results flagged for a closer look

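The following responses differed between the systems by the test of the difference itself (limma log2 fold change against vehicle, 3T3-L1 minus DFAT), 17 of 40 tested without the replicate block. With the block in 3T3-L1 only there were 24. The shares of all genes for each treatment stand with the results above. With rosiglitazone the differences were 1.97 for Bcat2, 0.96 for Bckdha, 2.21 for Bckdhb, 1.21 for Dbt, 0.74 for Ivd, 0.77 for Mccc1, 0.88 for Mccc2, 1.04 for Aldh6a1 and 0.51 for Pccb. With magnolol they were 0.80 for Bcat2, 0.92 for Bckdhb, 0.63 for Mccc1 and 1.04 for Aldh6a1. With the combination they were 0.98 for Bcat2, 0.97 for Bckdhb, 0.61 for Mccc1 and 1.08 for Aldh6a1. All 17 are higher in 3T3-L1. Species, medium and depth differ between the systems and cannot be told apart.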

How the results depend on the processing

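No log2 fold change of the 10 genes that passed under any setting changed direction. Of 60 such values 22 kept their side of the threshold under every setting tried, and over all settings 730 comparisons with the reported value were unchanged, 26 gained and 84 lost a call. The counts below are of the 10 genes. For magnolol against vehicle in 3T3-L1 (3), no filter on low genes, no variance trend, only the compared groups and quantile normalization each gave 1, and the replicate block gave 6. Against vehicle in 3T3-L1 the replicate block also gave 1 for dicoumarol (0.458% of all genes rose), 9 for the combination (8.03%) and 10 for rosiglitazone. It gave 6 for the combination against dicoumarol (2.49%) and 8 for rosiglitazone against magnolol (23.2%). In DFAT it gave 4 for magnolol against vehicle and 5 for rosiglitazone against the combination (12.6% of all genes were lower). With the block in both systems, the difference between systems gave 2, 9 and 9 with dicoumarol, magnolol and the combination. No share of all genes is given for these 3 counts, the 10 or the 4, so they are not read as particular to the set. With the replicate block in 3T3-L1 only, chosen after seeing the data, the counts for the difference between systems were 0, 7 and 7. The shares of all genes higher in 3T3-L1 were 0.662%, 4.59% and 10.9%. In 3T3-L1 the block changed no call of the 10 genes against vehicle or between treatments beyond those given beside the results. In DFAT the numbers do not pair with vehicle. Quantile normalization gave 5 for the combination against vehicle in 3T3-L1, where Bckdha and Ivd no longer passed (limma, adjusted p = 0.0883 and 0.0576). It gave 2 for magnolol in DFAT. Except with the block, shares of all genes under the other settings are not given here. With only the compared groups in DFAT, rosiglitazone gave 2 against vehicle, 1 against the combination and 0 against magnolol. The causes were not tested. Leaving out 1 library gave, in 3T3-L1, 0 to 2 for magnolol, 2 to 6 for the combination, 9 to 9 for rosiglitazone, 2 to 4 for rosiglitazone against the combination and 4 to 5 against magnolol. In DFAT it gave 1 to 2 for magnolol, 1 to 1 for the combination, 2 to 4 for rosiglitazone, 1 to 3 for rosiglitazone against the combination and 0 to 1 against magnolol. For the difference between systems it gave 3 to 4 with magnolol, 4 to 5 with the combination and 9 to 10 with rosiglitazone. A left-out library leaves 2 in its group, which are assumed to vary like the others. The lowest normalized count of the 10 genes in any library was 263 (Dbt with dicoumarol in 3T3-L1).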

Other observations

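The libraries of replicate 2 were the lowest of their group in all 5 groups of 3T3-L1 for Bcat2, Bckdhb, Dbt, Ivd and Mccc1. Adipoq, a fat-cell hormone, was likewise lowest in replicate 2 with vehicle (794, 187 and 379 normalized counts in replicates 1 to 3) and with rosiglitazone (20741, 7971 and 12776). The sum of the 12 adipocyte markers did not share this order in every group. It was lowest in replicate 3 with vehicle (62237, 44445 and 44247), dicoumarol and magnolol, and in replicate 2 with the combination and rosiglitazone. In DFAT, replicate 3 was the lowest in all 5 groups for BCAT2 and the highest in all 5 for PCCA. The part of replicate number in single values was not tested beyond the block.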
